A study of Mus musculus with 35 samples.

Results

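MicroRNAs (miRNAs) were compared between 2 white fat depots of the mouse, eWAT and mWAT, which form 6 of the 18 miRNA libraries and 6 of all 35 samples of the study. The libraries were chosen by their labels alone, 3 eWAT and 3 mWAT. All 6 came from male wild-type C57BL/6J mice of 13 weeks, with no genetic change or drug treatment given in the labels. The labels spell out eWAT as epididymal fat for other samples of the study, and mWAT is kept as they write it. The protocol text mentions cold housing for mice whose inguinal pads were taken, and ties it to neither depot. The labels do not say whether libraries of 1 depot came from different animals, so the p-values below measure the spread between libraries, which may be technical. The other 12 libraries, from the depots labelled iWAT, aWAT, cWAT and iBAT (same strain, sex and age, 3 each), were used for the spread and for placing the pair among the 6 depots. The comparison asks which mature miRNAs separate these 2 white pads.

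A mature miRNA is a short RNA cut from a hairpin precursor. It guides an Argonaute protein to messenger RNAs that pair with its seed, bases 2 to 8 from the 5′ end, and lowers their output. MiRNAs with 1 seed share many targets, and neighbouring hairpins are often cut from 1 transcript, so seeds and clusters are used below to group the results. In fat, miRNAs are known to act on the growth of adipocyte precursors, and those encoded among the Hox genes mark the position along the body axis from which a tissue came.

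The sequences that follow are those on which the main differences turn, from RefSeq (GRCm38.p6), printed 5′ to 3′ with the seed in capitals. The miR-34 and miR-449 miRNAs, higher in eWAT except for miR-34a-5p, carried these sequences.
miR-34b-5p: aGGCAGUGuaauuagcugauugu
miR-449a-5p: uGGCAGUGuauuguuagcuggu
miR-34a-5p: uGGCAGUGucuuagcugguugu
miR-34b-3p: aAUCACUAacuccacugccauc
miR-34c-3p: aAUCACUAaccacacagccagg

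The next sequences are 2 other miRNAs higher in eWAT, a member of the miR-322 cluster of the X chromosome that was higher in eWAT, and the member of that cluster that was higher in mWAT.
miR-335-5p: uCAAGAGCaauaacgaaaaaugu
miR-92b-3p: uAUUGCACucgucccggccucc
miR-322-5p: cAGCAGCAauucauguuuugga
miR-542-3p: uGUGACAGauugauaacugaaa

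Pairs of paralogs from the Hox clusters and the miR-27 clusters differ in sequence at 1 base, yet come from different loci. Counted from the 5′ end, the change from miR-196a-5p to miR-196b-5p was A12C, that from miR-10a-5p to miR-10b-5p was U12A, and that from miR-27a-3p to miR-27b-3p was C19U. Each change lies outside the seed.
miR-196a-5p: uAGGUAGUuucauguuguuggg
miR-196b-5p: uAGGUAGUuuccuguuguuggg
miR-10a-5p: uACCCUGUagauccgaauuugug
miR-10b-5p: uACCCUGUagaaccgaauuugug
miR-27a-3p: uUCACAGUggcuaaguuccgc
miR-27b-3p: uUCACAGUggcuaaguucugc

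The last set was higher in mWAT: 3 miRNAs known from nerve tissue, 2 of the Dlk1-Dio3 region and 2 with high numbers in the miRNA register.
miR-9-5p: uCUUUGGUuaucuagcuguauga
miR-7b-5p: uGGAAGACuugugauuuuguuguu
miR-338-3p: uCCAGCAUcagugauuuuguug
miR-127-3p: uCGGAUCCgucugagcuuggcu
miR-381-3p: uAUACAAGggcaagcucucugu
miR-6538: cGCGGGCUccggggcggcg
miR-6238: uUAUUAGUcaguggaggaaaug

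Reads counted to miRNAs numbered 4122136, 5694349 and 4200661 in the eWAT libraries and 2817527, 1943300 and 2871504 in the mWAT libraries, so each eWAT library was deeper than every mWAT library. Values below are normalized counts, the authors' counts divided by a size factor per library. A difference is eWAT minus mWAT on the scale log2(normalized count + 1), with its standard error (SE) from limma. A miRNA was called when its adjusted p was below 0.05 (limma with Benjamini-Hochberg adjustment over all 436 miRNAs tested, after 49 low ones were removed). Of the tested miRNAs 29.1% were called, 54 (12.4% of those tested) higher in eWAT and 73 (16.7%) higher in mWAT. Before adjustment, 168 had a p below 0.05. The libraries of the 2 depots did not overlap for 49.8% of the tested miRNAs, 102 with eWAT above (23.4%) and 115 with mWAT above (26.4%), and for all but 3 of those called.

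The median difference over all tested miRNAs was 0.04. Called miRNAs had a median difference of 0.72 where eWAT was higher and -1.18 where mWAT was higher. The difference reached 1 or more in size for 64 called miRNAs, 18 higher in eWAT and 46 higher in mWAT, and 2 or more for 33, 12 and 21. The called miRNAs carried 34.7% of all normalized counts in eWAT and 49.2% in mWAT. The split by direction rested on the scaling and on the level required. Tested alone, the 232 miRNAs with a mean of at least 100 gave 46 calls higher in eWAT and 44 higher in mWAT. With each library scaled to its total reads the median over all tested miRNAs moved to 0.25, and 24.5% of the tested miRNAs were called higher in eWAT and 13.5% higher in mWAT. The share of calls that were higher in eWAT was then 64.5%, against 42.5% with the authors' scaling. No called miRNA was called in the opposite direction under any alternative.

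**Figure D1:**
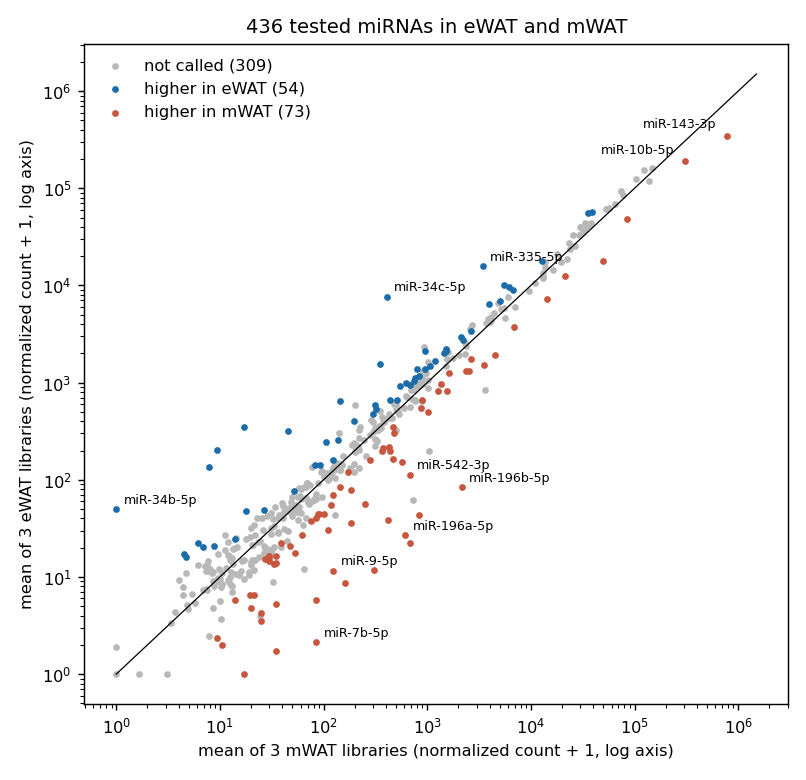
Mean of 3 eWAT libraries (vertical) against the mean of 3 mWAT libraries (horizontal) for each of the 436 tested miRNAs, as normalized count + 1 on log axes, with the line of equal values. The 54 miRNAs called higher in eWAT are blue and the 73 called higher in mWAT are red, with miR-34c-5p and miR-335-5p well above the line and miR-196b-5p, miR-9-5p and miR-7b-5p well below it.

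The miR-34b/c cluster gave some of the largest differences towards eWAT. These miRNAs are induced by p53 and are known above all from testis and from ciliated epithelium, such as that of the airways and the male reproductive ducts. Their 2 hairpins lie at chr9:51103034-51103645 on the minus strand, within the annotated genes Btg4 and Hoatz. miR-34c-5p stood at 8183, 3957 and 10924 normalized counts in the eWAT libraries and at 288, 398 and 529 in the mWAT libraries. The lowest eWAT library was thus far above the highest mWAT library, and the ratio of the means was 18.97-fold (difference 4.17 ± 0.39 SE, limma adjusted p = 1.24e-06). miR-34b-3p stood at 373, 219.2 and 448 in eWAT against 13.8, 19.6 and 15.1 in mWAT (4.29 ± 0.75 SE, limma adjusted p = 0.000406). The other arm of the miR-34c hairpin, miR-34c-3p, moved by the same order, 247, 115 and 247 against 6.88, 7.54 and 10.8 (4.38 ± 0.33 SE, limma adjusted p = 1.84e-07).

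miR-34b-5p was counted in eWAT only, at 46.5, 25.6 and 74.7 normalized counts, and stood at 0 in the 3 mWAT libraries. Against a floor of 3 reads in each mWAT library, it was at least 13.7-fold higher in eWAT. The related miR-449a-5p, from a hairpin within Cdc20b and also known from ciliated cells, was low in both depots, at 26.5, 11.97 and 26.1 against 0, 9.05 and 6.48 (2.33 ± 0.84 SE, limma adjusted p = 0.048). That call was lost in 10 of 16 alternatives, among them those without eWAT 1, eWAT 2, eWAT 3 or mWAT 1 (limma, edgeR or DESeq2 adjusted p from 0.00695 to 0.231). miR-34a-5p, with the same seed but a locus of its own, stood at 442, 562 and 649 in eWAT and 517, 682 and 595 in mWAT, and these ranges overlapped (-0.13 ± 0.20 SE, limma adjusted p = 0.688). The ratio of miR-34c-5p to miR-34a-5p was 18.5, 7.04 and 16.8 in the eWAT libraries and 0.557, 0.584 and 0.889 in the mWAT libraries. Such ratios within a library do not depend on its scaling. The exact two-sided permutation p of this ratio was 0.1, the smallest that 3 against 3 libraries allow.

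A list of 25 miRNAs known from germ cells and ciliated cells held these 4 arms, miR-449a-5p and 20 others that have no row in the file, among them the testis cluster with miR-465, miR-741 and miR-743. All 5 members tested were called higher in eWAT, against 12.4% of all tested miRNAs, with a median difference of 4.29, and 4 of the 5 by edgeR and by DESeq2. Their summed level was 8876, 4328 and 11720 in eWAT and 309, 435 and 562 in mWAT. The eWAT 2 library was the lowest eWAT library in this sum and also in the sum of 11 epithelial miRNAs, 9053, 5329 and 10554. In eWAT 2, 9 miRNAs of 232 with a mean of at least 100 were more than 2-fold below both other eWAT libraries: miR-34c-5p, miR-34c-3p, miR-375-3p, miR-183-5p and the 5 miRNAs of the miR-200 family. The part of epithelial RNA in the miR-34b/c difference was not tested. In bulk tissue, a change in the number of cells of a type cannot be told apart from a change in RNA per cell.

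miR-335 was the most abundant of the miRNAs with a large difference towards eWAT. Its hairpin, at chr6:30741299-30741396, lies in Mest, an imprinted gene known for its link with the growth of fat tissue. miR-335-5p stood at 14006, 14166 and 18937 normalized counts in eWAT and at 3233, 3449 and 3634 in mWAT, a ratio of means of 4.57-fold (2.18 ± 0.24 SE, limma adjusted p = 4.77e-06). The other arm, miR-335-3p, went from 1314, 1225 and 2083 in eWAT to 263, 303 and 488 in mWAT (2.14 ± 0.27 SE, limma adjusted p = 3.3e-05). Both arms were therefore above mWAT in every eWAT library and by nearly the same amount. In the other 4 depots the mean of miR-335-5p lay between 2234 and 3244, below mWAT, so that eWAT was the highest of the 6.

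miR-92b-3p, of the large seed family with miR-25, miR-32 and miR-92a, was 7.05-fold higher in eWAT, at 408.8, 182.5 and 349 against 45.2, 36.2 and 51.8 (2.73 ± 0.38 SE, limma adjusted p = 6.91e-05). Its abundant relative miR-92a-3p stood at 5982, 5147 and 4534 in eWAT and 4113, 4944 and 4112 in mWAT and was not called (0.25 ± 0.16 SE, limma adjusted p = 0.289), except when scaled to total reads (0.46, adjusted p = 0.0403). miR-135a-5p was another low miRNA above mWAT in every eWAT library, at 130, 66.7 and 211 against 7.87, 3.02 and 9.72 (4.09 ± 0.62 SE, limma adjusted p = 0.000128).

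**Figure D2:**
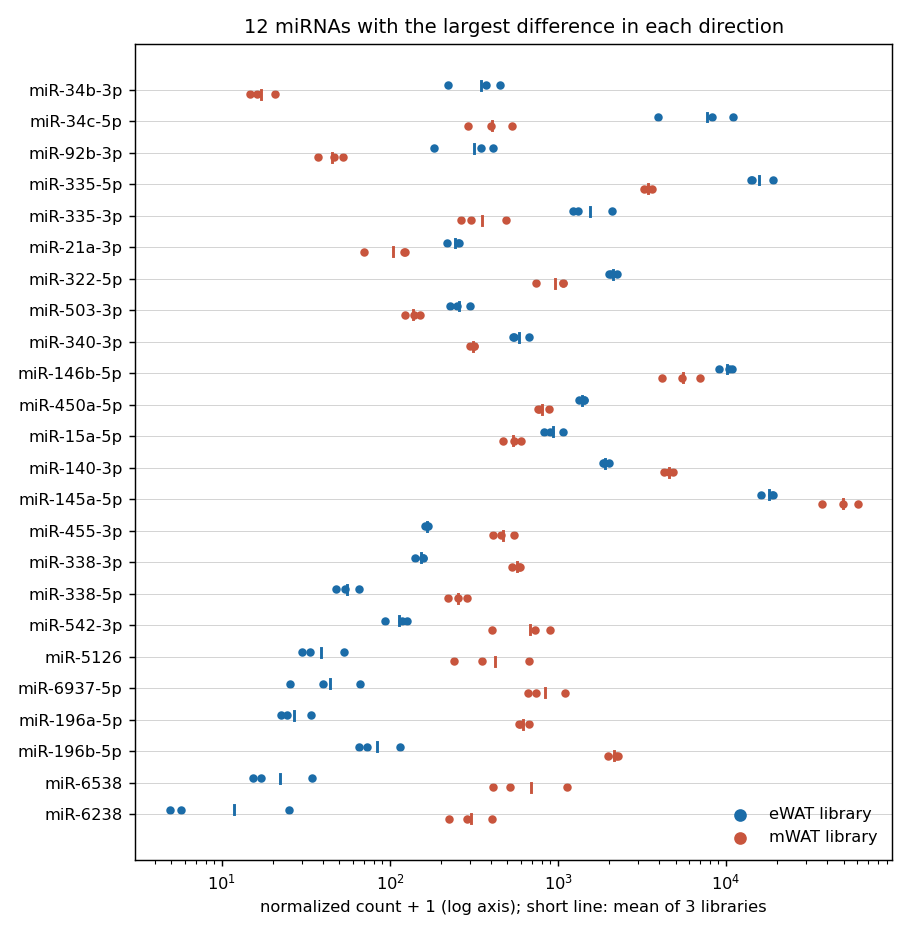
Normalized count + 1 on a log axis in each eWAT library (blue) and each mWAT library (red) for 24 called miRNAs, the 12 with the largest difference in each direction among those above the median level, with a short line at the mean of 3. The points of the 2 depots do not overlap in any row, since absence of overlap was a condition of the choice. The gap narrows from miR-34b-3p to miR-15a-5p at the top and from miR-6238 to miR-140-3p at the bottom.

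Smaller differences towards eWAT were those of miR-21a-3p, miR-146b-5p, miR-340-3p and miR-15a-5p. miR-21a-3p, the minor arm of the hairpin of miR-21, which rises in many inflamed and growing tissues, stood at 216.4, 251 and 257 in eWAT and 121, 121 and 69.1 in mWAT (1.26 ± 0.28 SE, limma adjusted p = 0.00276). The main arm, miR-21a-5p, ranged from 66366 to 107180 in eWAT and from 66711 to 95979 in mWAT and was not called (0.13 ± 0.34 SE, limma adjusted p = 0.821). miR-146b-5p, which is induced by NF-kB and dampens it, stood at 10437, 10895 and 9042 against 4135, 6998 and 5494 (0.90 ± 0.20 SE, limma adjusted p = 0.00333).

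Its near-copy miR-146a-5p, from another chromosome, overlapped between the depots (-0.08 ± 0.15 SE, limma adjusted p = 0.733), although reads of such close relatives can be hard to assign. Of 15 immune cell miRNAs tested, 2 were called, miR-146b-5p and the macrophage miRNA miR-511-5p (1.59 ± 0.52 SE, limma adjusted p = 0.0297), both higher in eWAT. This share of 13.3% is close to the 12.4% of all tested miRNAs, and the median difference was 0.36. For 6 of the 15, all eWAT libraries lay above all mWAT libraries (23.4% of all tested miRNAs did), and for 0 the reverse held (26.4%). The summed level of the list was 39477 to 43544 in eWAT and 30162 to 39084 in mWAT. The call of miR-511-5p was lost without eWAT 2, eWAT 3 or mWAT 2 (adjusted p up to 0.123). The blood cell miRNA miR-142a-3p (0.32 ± 0.44 SE), the myeloid miR-223-3p (0.26 ± 0.16 SE) and the lymphocyte miR-150-5p (0.46 ± 0.43 SE) were not called, although miR-223-3p was in a fit of the pair alone (adjusted p = 0.039).

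miR-340-3p stood at 667.2, 537 and 547 in eWAT and 297, 317 and 316 in mWAT (0.90 ± 0.13 SE, limma adjusted p = 6.91e-05), and miR-340-5p was also called (0.46 ± 0.14 SE), but not without eWAT 1, eWAT 3, mWAT 1 or mWAT 3. miR-15a-5p, which represses Bcl2 and cell cycle genes, stood at 827, 898 and 1069 against 603, 549 and 468 (0.79 ± 0.19 SE, limma adjusted p = 0.00584). It shares the seed AGCAGCA with miR-15b-5p, miR-16-5p, miR-195a-5p, miR-322-5p and miR-497a-5p. Of these 6, 4 were called higher in eWAT, against 12.4% of all tested miRNAs, and none higher in mWAT. Of the 4, miR-16-5p (0.41 ± 0.15 SE) was not called without any 1 of the 6 libraries, and miR-15b-5p (0.55 ± 0.16 SE) not without eWAT 2, eWAT 3 or mWAT 3. miR-195a-5p (0.09 ± 0.11 SE) and miR-497a-5p (0.11 ± 0.15 SE) were not called.

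The cluster of miR-322, miR-503, miR-542 and miR-450 on the X chromosome split by direction. In mouse, miR-322 is the counterpart of human miR-424, and with miR-503 it slows the cell cycle in differentiating cells. miR-322-5p stood at 2021, 2070 and 2254 in eWAT and 1076, 1064 and 737 in mWAT (1.16 ± 0.19 SE, limma adjusted p = 0.000228). miR-503-3p stood at 300, 227 and 248 against 149, 137 and 121 (0.92 ± 0.20 SE, limma adjusted p = 0.0025). miR-450a-5p stood at 1416, 1322 and 1420 against 877, 759 and 772 (0.79 ± 0.12 SE, limma adjusted p = 0.000128).

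Of the 7 tested miRNAs of miR-322, miR-503, miR-542 and miR-450, 6 were higher in eWAT, against 12.4% of all tested miRNAs. These included miR-503-5p (1.41 ± 0.31 SE), miR-450b-5p (0.60 ± 0.19 SE) and miR-322-3p (0.56 ± 0.15 SE). The 7 leave out miR-351 of the same cluster, whose arms miR-351-5p (0.38) and miR-351-3p (0.81) were tested and not called. In a fit of the pair alone, miR-351-5p was called higher in eWAT (limma adjusted p = 0.0167). miR-450b-5p was not called without eWAT 1, eWAT 2 or mWAT 3, nor miR-322-3p without eWAT 1. The exception among the 7 was miR-542-3p, at 118, 125.7 and 92.5 in eWAT and 731, 896 and 404 in mWAT, 6.05-fold higher in mWAT (-2.52 ± 0.33 SE, limma adjusted p = 3.74e-05). Per library, the ratio of miR-542-3p to miR-322-5p was 0.0582, 0.0607 and 0.0410 in eWAT against 0.679, 0.843 and 0.548 in mWAT (exact two-sided permutation p = 0.1, the smallest possible). The hairpins of miR-542 and miR-322 both lie on the minus strand within chrX:53047997-53054349. The opposite directions held under each scaling tried.

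The 2 miR-196 paralogs gave large differences towards mWAT, and miR-196a-5p had the smallest adjusted p of all tested miRNAs. Their hairpins lie within the Hox gene clusters, and miR-196 is known to repress Hox genes and to favour brown-like adipocytes in white fat. miR-196a-5p comes from 2 hairpins, at chr11:96265164-96265265 and chr15:102973350-102973434, and miR-196b-5p from 1, at chr6:52230081-52230165. miR-196a-5p stood at 23.3, 32.9 and 21.4 in eWAT and 591, 668.4 and 584 in mWAT, 23.8-fold higher in mWAT (-4.54 ± 0.20 SE, limma adjusted p = 2.35e-10). miR-196b-5p stood at 63.9, 113 and 72.4 against 2211, 1983 and 2274, 25.9-fold higher in mWAT (-4.72 ± 0.41 SE, limma adjusted p = 6.2e-07). Both were lower in every eWAT library than in any mWAT library.

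Among the other depots, means of miR-196a-5p were 1160 in iWAT and 1152 in cWAT, 6.62 in aWAT and 0 in iBAT. For miR-196b-5p the means were 1345, 1062, 101 and 4.16 in the same order, so that mWAT was the highest of the 6 for miR-196b-5p and iWAT for miR-196a-5p. With 1 base between them, reads of these 2 miRNAs could be partly exchanged in counting. Such an exchange was not tested.

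The miR-10 miRNAs of the Hox clusters were far more abundant and differed less. miR-10b-5p, within Hoxd3 and Hoxd4, stood at 231151, 185679 and 153311 in eWAT and 294632, 363027 and 261749 in mWAT (-0.70 ± 0.20 SE, limma adjusted p = 0.0142). This call rested on single libraries: the adjusted p was 0.0806 without eWAT 3 (-0.55) and 0.0614 without mWAT 2 (-0.57). Its minor arm miR-10b-3p was also called (-0.83 ± 0.22 SE, limma adjusted p = 0.00816). miR-10a-5p, within Hoxb3, overlapped between the depots, at 141966, 113926 and 99508 against 126973, 171387 and 113317 (-0.21 ± 0.17 SE, limma adjusted p = 0.419). The ratio of miR-10b-5p to miR-10a-5p was 1.63, 1.63 and 1.54 in eWAT and 2.32, 2.12 and 2.31 in mWAT (exact two-sided permutation p = 0.1). Of the 7 miRNAs from the Hox clusters that were tested, 4 were higher in mWAT and none higher in eWAT, against 16.7% and 12.4% of all, with a median difference of -0.70. miR-615-3p, within the Hoxc cluster, lay on the other side without passing the test (0.54 ± 0.22 SE, limma adjusted p = 0.0832). It was called higher in eWAT when the libraries were scaled to total reads (0.75, adjusted p = 0.00324) and in a fit of the pair alone (adjusted p = 0.0177).

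**Figure D3:**
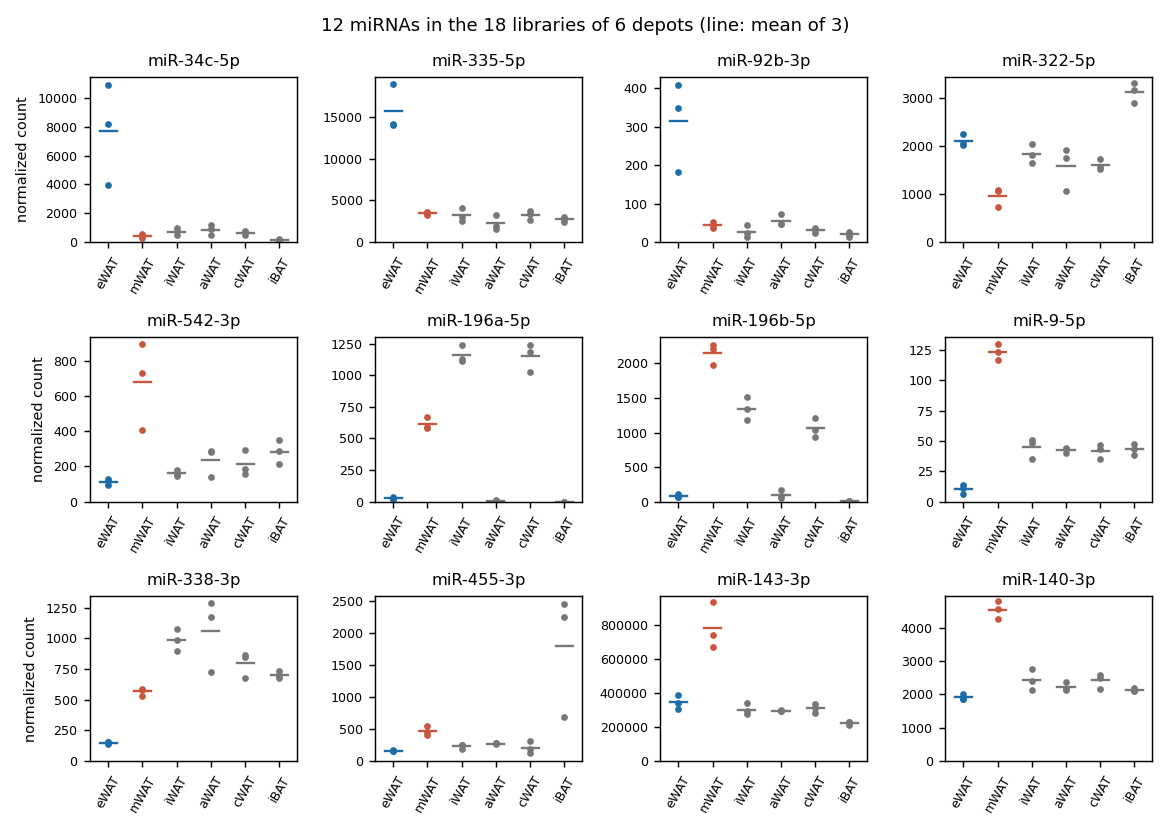
Normalized count in each of the 3 libraries of 6 depots (points) and their mean (line) for 12 miRNAs, with linear axes that start at 0. eWAT is alone at the top for miR-34c-5p, miR-335-5p and miR-92b-3p, whereas miR-196a-5p is high in mWAT, iWAT and cWAT and miR-455-3p is highest in iBAT.

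Several miRNAs known from nerve tissue were low in eWAT. miR-9-5p, the leading miRNA of neural progenitors, stood at 6.46, 11.5 and 13.6 in eWAT and 117, 130 and 123 in mWAT, 11.7-fold higher in mWAT (-3.48 ± 0.23 SE, limma adjusted p = 3.45e-08). Its minor arm miR-9-3p followed, at 3.23, 2.99 and 3.56 against 27.5, 18.1 and 25.9 (-2.53 ± 0.25 SE, limma adjusted p = 2.27e-06). miR-338-3p, from a hairpin in the kinase gene Aatk and known from oligodendrocytes, stood at 140, 157 and 157 against 582, 590 and 530 (-1.90 ± 0.17 SE, limma adjusted p = 8.45e-07). The partner arm miR-338-5p had a like difference (-2.19 ± 0.26 SE). In each case the 2 depots were well apart.

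The miRNAs miR-7b-5p, miR-137-3p, miR-384 and miR-490-3p are outside the nerve list given below and were named after their values were seen. Lower still in eWAT was miR-7b-5p, known from the hypothalamus, at 0, 3.42 and 0 against 53.1, 67.9 and 131.8 (-5.59 ± 0.76 SE, limma adjusted p = 5.49e-05). miR-7a-5p stood at 240, 262 and 265 in eWAT and 245, 386 and 334 in mWAT and was not called (-0.31 ± 0.20 SE, limma adjusted p = 0.292). miR-137-3p, a brain miRNA, was at 0, 2.14 and 0 against 35.4, 18.1 and 47.5 (-4.46 ± 0.59 SE). miR-384-3p was at 0 in all 3 eWAT libraries and at 13.8, 18.1 and 16.2 in mWAT, at least 9.62-fold higher against a floor of 3 reads in each eWAT library. Its other arm miR-384-5p was called too (-2.84 ± 0.45 SE). miR-490-3p, from a hairpin in the muscarinic receptor gene Chrm2, ranged from 1.94 to 8.90 in eWAT and from 28.5 to 177 in mWAT (-3.63 ± 1.06 SE, limma adjusted p = 0.0171), and was not called without eWAT 1, eWAT 2 or mWAT 3 (adjusted p up to 0.0853).

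Of 8 nerve miRNAs tested as a list, 3 were higher in mWAT (both arms of miR-9 and miR-338-3p), against 16.7% of all tested miRNAs, and none in eWAT, with a median difference of -0.25. The other 5, among them miR-128-3p (0.06 ± 0.27 SE), miR-132-3p (0.06 ± 0.26 SE) and miR-138-5p (-0.50 ± 0.38 SE), were not called. miR-124-3p, the miRNA most tied to mature neurons, has no row among those tested. In the other depots miR-9-5p had means from 41.8 to 44.8, between eWAT and mWAT. miR-338-3p was between 701 and 1062 there, above both depots of the pair.

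The most abundant miRNA of both depots differed between them. miR-143-3p, of the cluster of miR-143 and miR-145 in smooth muscle and mesenchymal cells, took 14.6%, 14.1% and 12.4% of all normalized counts in the eWAT libraries and 24.2%, 25.3% and 30.1% in the mWAT libraries. Its level was 389654, 343714 and 309403 against 669281, 743128 and 933846, 2.25-fold higher in mWAT (-1.16 ± 0.12 SE, limma adjusted p = 4.77e-06). miR-145a-5p of the same cluster stood at 16197, 18877 and 18827 against 49683, 37214 and 60900 (-1.43 ± 0.14 SE, limma adjusted p = 1.34e-06). The minor arms miR-143-5p (-1.19 ± 0.17 SE) and miR-145a-3p (-0.75 ± 0.13 SE) were called as well. All 4 arms of the cluster were thus higher in mWAT.

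The list of 9 tested smooth muscle and mesenchymal miRNAs also held miR-199b-5p, called higher in mWAT (-0.61 ± 0.15 SE, limma adjusted p = 0.00713), though not when scaled to total reads (-0.40, adjusted p = 0.16). Of the list, 5 were higher in mWAT (16.7% of all tested miRNAs were) and none in eWAT, with a median of -0.61, and the 4 others had differences below 0. Those not called included miR-214-3p (-0.43 ± 0.38 SE) and miR-152-3p (-0.14 ± 0.12 SE). In the other depots miR-143-3p had means between 224145 and 310896, below every mWAT library, so that mWAT was the highest of the 6.

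2 cartilage miRNAs were higher in mWAT in both arms. miR-140-3p, from a hairpin in the ubiquitin ligase gene Wwp2, stood at 1853, 2008 and 1868 in eWAT and 4568, 4271 and 4795 in mWAT (-1.25 ± 0.10 SE, limma adjusted p = 3.33e-07), and miR-140-5p was called too (-0.97 ± 0.14 SE). miR-455-3p, which also promotes brown adipocyte formation, stood at 167, 161 and 165 against 453, 408.9 and 543.2 (-1.50 ± 0.38 SE, limma adjusted p = 0.00759), with miR-455-5p alongside (-1.60 ± 0.28 SE). In iBAT the mean of miR-455-3p was 1798, above mWAT.

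Of 11 brown and beige fat miRNAs, 3 were called (27.3%, close to the 29.1% of all tested miRNAs). All 3 were higher in mWAT, against 16.7% of all tested miRNAs: both arms of miR-455 and miR-328-3p (-0.42 ± 0.13 SE, limma adjusted p = 0.0242). The call of miR-328-3p was lost without eWAT 1, eWAT 3, mWAT 1 or mWAT 2 (adjusted p up to 0.0755) and when scaled to total reads (-0.21, adjusted p = 0.193). miR-378a-3p, from the coactivator gene Ppargc1b and abundant in brown fat, stood at 16456, 15526 and 14907 in eWAT and 13159, 14551 and 13442 in mWAT and was not called (0.19 ± 0.19 SE, limma adjusted p = 0.5). miR-193b-3p (0.17 ± 0.17 SE) and miR-365-3p (0.47 ± 0.20 SE, limma adjusted p = 0.0873), known from brown adipocyte formation in culture, were not called, although miR-365-3p was without mWAT 1 (adjusted p = 0.0243). The median of the list was 0.02. Scaled to total reads, the list had 3 calls higher in eWAT and 2 higher in mWAT, against 24.5% and 13.5% of all tested miRNAs.

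miR-27b-3p, which represses Pparg and holds back fat cell formation, stood at 53708, 47307 and 43419 in eWAT and 76915, 86609 and 89567 in mWAT (-0.81 ± 0.11 SE, limma adjusted p = 6.91e-05). Its neighbour on chromosome 13, miR-23b-3p, stood at 3643, 4186 and 3333 against 6765, 6553 and 7505 (-0.90 ± 0.10 SE, limma adjusted p = 4.77e-06). The paralogs from the other cluster, on chromosome 8, were not called, with differences of 0.00 ± 0.10 SE for miR-27a-3p and -0.16 ± 0.10 SE for miR-23a-3p. The ratio of miR-27b-3p to miR-27a-3p was 2.23, 2.08 and 1.77 in eWAT and 3.11, 4.02 and 3.55 in mWAT. That of miR-23b-3p to miR-23a-3p was 0.304, 0.334 and 0.304 against 0.505, 0.516 and 0.559. For both ratios all mWAT libraries lay above all eWAT libraries, and both had an exact two-sided permutation p of 0.1. In all, 7 such pairs were compared, each with an exact permutation p = 0.1 before and after adjustment over the 7. In each pair the first miRNA was called, and the second was not or was called the opposite way. Such a choice favours the smallest p, so these ratios are no separate test of the differences.

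Among 15 miRNAs known from adipocyte differentiation, 4 were higher in eWAT and 2 higher in mWAT, against 12.4% and 16.7% of all tested miRNAs, and the median was 0.21. Those higher in eWAT were both arms of miR-335, miR-130a-3p, which represses Pparg (0.50 ± 0.15 SE, limma adjusted p = 0.0183), and miR-103-3p, which lowers insulin sensitivity (0.44 ± 0.14 SE, limma adjusted p = 0.0305). Without eWAT 3 or mWAT 2, neither miR-130a-3p nor miR-103-3p was called, nor was miR-130a-3p without mWAT 3 or miR-103-3p without eWAT 2 or mWAT 1. Those higher in mWAT were miR-143-3p and miR-27b-3p. Members not called included miR-26a-5p (0.16 ± 0.12 SE), miR-221-3p (0.01 ± 0.16 SE) and miR-155-5p (-0.10 ± 0.33 SE). Scaled to total reads, 7 of the list were called higher in eWAT and 2 higher in mWAT, against 24.5% and 13.5% of all tested miRNAs.

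The Dlk1-Dio3 region gave the largest group of neighbouring miRNAs with 1 direction. This imprinted region encodes many miRNAs, expressed from the maternal chromosome, and is known from growth and from stem cells. The hairpins of the members listed for this report that have a row span chr12:109571990-109743795, or 171.8 kb. Annotated neighbours reach further, from 109563692 to 109747960, so the limits are those of the list. The span holds 55 hairpins, and 51 of its miRNAs were tested. Of these, 27 were called higher in mWAT (16.7% of all tested miRNAs were) and none higher in eWAT, with a median difference of -0.80, and 48 of the 51 differences were below 0. Scaled to total reads the counts were 20 and 0, against 13.5% and 24.5% of all tested miRNAs, with a median of -0.59.

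miR-127-3p, the most abundant member, stood at 8706, 7295 and 5951 in eWAT and 12086, 16263 and 14216 in mWAT (-0.96 ± 0.14 SE, limma adjusted p = 0.000106). It is transcribed against the retrotransposon-like gene Rtl1, which it silences. miR-381-3p stood at 202.8, 201.7 and 186 against 372, 438 and 505 (-1.14 ± 0.13 SE, limma adjusted p = 6.9e-06). miR-541-5p stood at 1565, 1343 and 1031 against 2215, 2746 and 2544 (-0.95 ± 0.15 SE, limma adjusted p = 0.000143). In each the 2 depots did not overlap.

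Called members lay towards both ends of the span, from 0 to 23.3 kb and from 137.1 to 171.7 kb after its first hairpin. Between these stretches only miR-370-3p was tested, at 46.3 kb, and it was not called. miR-434-5p (-0.89 ± 0.13 SE), miR-136-3p (-0.84 ± 0.15 SE), miR-379-5p (-0.68 ± 0.13 SE), miR-409-3p (-1.22 ± 0.22 SE) and miR-369-3p (-1.12 ± 0.17 SE) were examples from both of its groups of hairpins. The difference furthest from 0 was that of miR-487b-3p, a low miRNA at 3.23, 3.42 and 4.74 in eWAT and 13.8, 18.1 and 24.8 in mWAT (-2.03 ± 0.58 SE, limma adjusted p = 0.0154), which was not called without eWAT 1 (adjusted p = 0.0506) or mWAT 3 (0.0612). The members above 0 were miR-496a-3p (0.63 ± 0.87 SE), miR-376a-5p (0.46 ± 0.52 SE) and miR-541-3p (0.10 ± 1.09 SE), none of them called and each with a wide error.

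**Figure D4:**
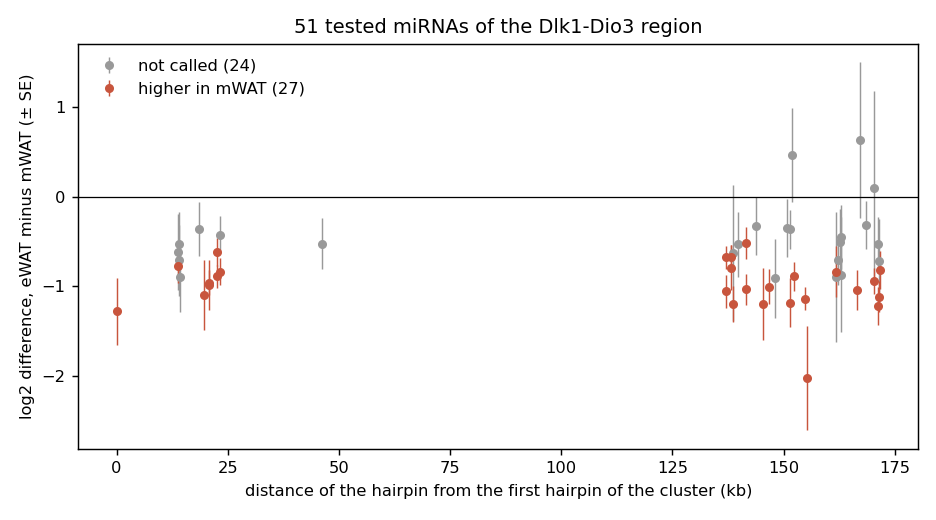
Difference between eWAT and mWAT on the log2 scale, with its standard error, for the 51 tested miRNAs of the Dlk1-Dio3 region, by distance of the hairpin from the first hairpin (kb). The 27 called members, red, all lie below 0 and occur at both ends of the plotted span, and the 24 others, grey, include the 3 members above 0.

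4 miRNAs with high register numbers stood among the largest differences towards mWAT. miR-6538 stood at 14.2, 33.3 and 16.01 in eWAT and 519, 1133 and 408 in mWAT (-4.91 ± 0.78 SE, limma adjusted p = 0.000188). miR-6238 stood at 3.88, 23.9 and 4.74 against 284, 403 and 225 (-5.06 ± 1.01 SE, limma adjusted p = 0.00118). miR-6937-5p (-4.33 ± 0.70 SE) and miR-5126 (-3.35 ± 0.57 SE) behaved alike. In all 4 the second library was the highest of its depot, in eWAT as in mWAT, and the means of the other depots ranged from 13.99 to 256, below mWAT for each of the 4. The 41 tested miRNAs numbered 1000 or above were a group formed after these values were seen. Of them 11 were higher in mWAT and 2 in eWAT, against 16.7% and 12.4% of all tested miRNAs, with a median of -0.33. The share called in either direction was 31.7%, close to the 29.1% of all tested miRNAs.

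The libraries mWAT 2 and, as given above, eWAT 2 stood apart within their depots. In mWAT 2, 12 of 232 miRNAs with a mean of at least 100 were more than 2-fold above both other mWAT libraries and 3 more than 2-fold below them, and 11 of the 12 that were above belong to the lists of epithelial, gut and pancreas miRNAs. These were miR-192-5p, miR-194-5p, miR-215-5p, miR-375-3p, miR-96-5p, miR-182-5p and the 5 of the miR-200 family, and the other was miR-6538. miR-192-5p, an intestinal and liver miRNA, stood at 7332, 3519 and 6964 in eWAT and at 1509, 17665 and 1683 in mWAT (0.67 ± 0.63 SE, limma adjusted p = 0.471). miR-215-5p, its seed relative, stood at 59.4, 59.4 and 63.5 against 12.8, 2147 and 5.40. miR-200b-3p, which holds cells in the epithelial state, stood at 1913, 771 and 2214 against 123.9, 2817 and 119 (2.09 ± 1.54 SE, limma adjusted p = 0.339). In all 3, mWAT 2 was above every eWAT library and the other mWAT libraries were below every one.

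mWAT 2 was singled out by its high values of these same miRNAs, so tests of them without it are not independent of that choice. Without mWAT 2 several of these miRNAs passed the test towards eWAT. The difference was then 1.82 ± 0.23 SE for miR-192-5p (limma adjusted p = 3.71e-05), 2.72 ± 0.42 SE for miR-215-5p (0.000249), 1.11 ± 0.22 SE for miR-194-5p (0.00128) and 4.66 ± 1.33 SE for miR-200c-3p (0.0159). miR-141-3p, at 648, 285 and 997 in eWAT and 7.87, 413 and 10.8 in mWAT, had a difference of 4.02 ± 1.45 SE (limma adjusted p = 0.0481) with all libraries and 5.80 ± 1.28 SE (0.00329) without mWAT 2. miR-375-3p, the islet miRNA, went from 4.49 ± 1.59 SE (limma adjusted p = 0.0458) to 7.07 ± 1.01 SE (0.000139), at 478, 198.7 and 517 against 0, 584 and 6.48. Each of these 2 calls was lost in 12 of 17 alternatives, among them those without any 1 of eWAT 1, eWAT 2, eWAT 3, mWAT 1 and mWAT 3, and both edgeR and DESeq2 (adjusted p up to 0.282 for miR-141-3p and 0.85 for miR-375-3p). These 2 and miR-144-3p were the 3 called miRNAs whose depots overlapped. The other tested pancreas miRNA, miR-216a-5p, ran towards mWAT (-0.85) and was not called with all libraries. In a fit of the pair alone it was called higher in mWAT (limma adjusted p = 0.0145). The gut and liver miRNA miR-122-5p also ran towards mWAT, at -1.20 with all libraries and -2.05 without mWAT 2 (limma adjusted p = 0.201), and was not called.

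Of the 11 epithelial miRNAs tested, 1 was called with all libraries and 2 without mWAT 2, with medians of 0.30 and 1.02. Of all tested miRNAs, 29.1% were called with all libraries and 27.5% without mWAT 2. Of the 4 gut and liver miRNAs, 0 were called with all libraries by limma, edgeR or DESeq2, 0 had an unadjusted p below 0.05, and 3 were called without mWAT 2. For both lists the counts without mWAT 2 carry the same limit, since members of these lists singled it out. The summed epithelial level in mWAT was 2854, 9966 and 3139, and that of the gut and liver list was 1654, 20560 and 1836. Over all miRNAs 120 were called without mWAT 2, 55 higher in eWAT and 65 higher in mWAT, and 21 of those called with all libraries were not among them. All 24 miRNAs of the plot of leading differences were called in the same direction without mWAT 2.

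**Figure D5:**
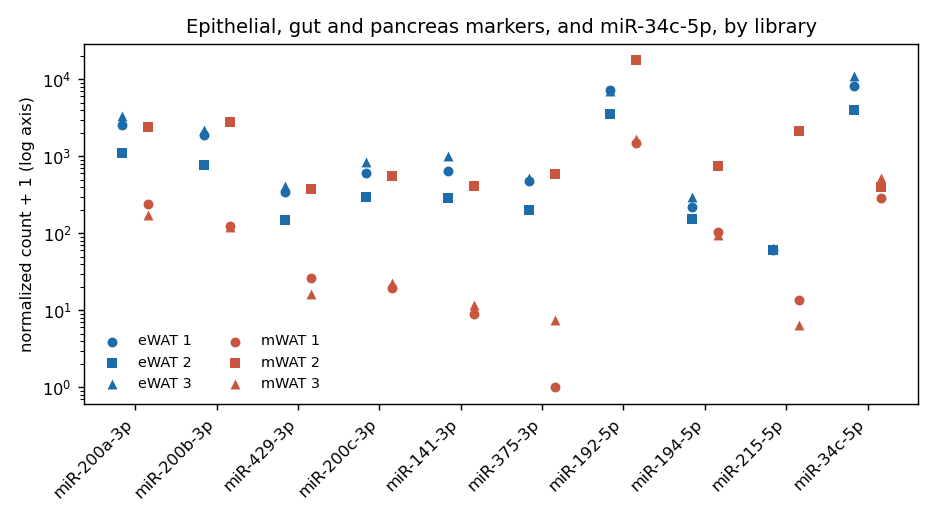
Normalized count + 1 on a log axis in each library (circle, square and triangle for libraries 1, 2 and 3; blue for eWAT, red for mWAT) for 9 miRNAs known from epithelium, gut and pancreas and for miR-34c-5p. mWAT 2, the red square, stands with or above the eWAT libraries in the first 9 columns, at 17665 for miR-192-5p, and with the other mWAT libraries at 398 for miR-34c-5p.

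Further lists covered other cells that fat holds. The endothelial miR-126a-3p, among the 10 most abundant, stood at 172745, 146923 and 141895 in eWAT and 122744, 144291 and 105593 in mWAT (0.32 ± 0.13 SE, limma adjusted p = 0.074), and was called without mWAT 2 (0.43, adjusted p = 0.0217) and when scaled to total reads (0.53, adjusted p = 0.00169). Of 4 red blood cell miRNAs, 2 were called higher in eWAT (12.4% of all tested miRNAs were), miR-451a (0.63 ± 0.22 SE, limma adjusted p = 0.0458) and miR-144-3p (0.70 ± 0.23 SE, limma adjusted p = 0.0352). Neither was called without eWAT 1, without eWAT 2, without mWAT 3, with TMM scaling or in a fit of the pair alone, nor was miR-451a without mWAT 1.

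Of the 6 striated muscle miRNAs tested, 5 stood above every eWAT library in all mWAT libraries (26.4% of all tested miRNAs did) and none was called. miR-1a-3p stood at 860, 797 and 832 in eWAT and 2809, 3859 and 4149 in mWAT (-2.10 ± 1.17 SE, limma adjusted p = 0.207), and miR-133a-3p at 180.8, 204.7 and 204.6 against 887, 1126 and 1084 (-2.38 ± 1.22 SE, limma adjusted p = 0.162). The SE came from all 6 depots, and in aWAT the mean of miR-1a-3p was 211701. The other member, miR-499-5p, ran the other way at a low level, at 11.6, 12.8 and 16.6 against 5.90, 4.53 and 9.72, and was not called either (0.97 ± 0.59 SE, limma adjusted p = 0.245). Fitted on the 6 libraries of the pair alone, 4 of the 6 were called higher in mWAT, against 19.95% of all tested miRNAs in that fit. With all depots, 0 of the 6 had an unadjusted limma p below 0.05 and edgeR and DESeq2 called 0. The median of the list was -2.14.

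Several other families were compared under the authors' scaling, where 29.1% of all tested miRNAs were called. None of 9 let-7 miRNAs was called, with differences from -0.14 to 0.25, and none of 5 miR-29 miRNAs, with differences from 0.03 to 0.24. Before adjustment, 2 of the let-7 and 0 of the miR-29 miRNAs had a limma p below 0.05, DESeq2 called 1 and 0, and edgeR 0 of either. Of 10 miR-30 miRNAs only miR-30c-1-3p was called (0.81 ± 0.28 SE, limma adjusted p = 0.0395), and not without eWAT 1, eWAT 2, eWAT 3, mWAT 1 or mWAT 2, by DESeq2 (0.0593) or in a fit of the pair alone (0.0666). For 7 of the 10 miR-30 miRNAs, all eWAT libraries lay above all mWAT libraries (23.4% of all tested miRNAs did), and their summed level was 249474 to 267237 in eWAT against 196594.5 to 219078 in mWAT. In the fit of the pair alone, miR-30b-5p (0.34, adjusted p = 0.0168) and miR-30c-5p (0.38, adjusted p = 0.0182) were called higher in eWAT, and DESeq2 called miR-30c-5p with all depots (0.0497). None of the 4 miRNAs of miR-221 and miR-222 was called by limma, edgeR or DESeq2, and 1 had an unadjusted limma p below 0.05. Of 14 miRNAs from miR-17-92 and its paralogs, 3 were higher in eWAT (12.4% of all tested miRNAs were), miR-106b-5p (0.74 ± 0.16 SE), miR-93-5p (0.51 ± 0.12 SE) and miR-25-3p (0.35 ± 0.10 SE), the last not without eWAT 2, mWAT 1 or mWAT 3 or with TMM scaling. These 3 share 1 cluster at chr5:138165321-138165818, and the members of miR-17-92 itself, such as miR-17-5p (0.02 ± 0.16 SE) and miR-20a-5p (0.00 ± 0.13 SE), were not called. Scaled to total reads, 5 let-7 and 8 miR-30 miRNAs were called higher in eWAT, against 24.5% of all tested miRNAs under that scaling.

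Among the other abundant miRNAs, miR-26a-5p ranged from 150062 to 182277 in eWAT and from 140449 to 149373 in mWAT (limma adjusted p = 0.336). miR-30a-5p (0.30 ± 0.14 SE, limma adjusted p = 0.112), miR-125a-5p (0.31 ± 0.19 SE, limma adjusted p = 0.246) and miR-125b-5p (0.10 ± 0.20 SE, limma adjusted p = 0.743) were not called either. Scaled to total reads, miR-26a-5p (0.37, adjusted p = 0.00371), miR-30a-5p (0.51, adjusted p = 0.00169) and miR-125a-5p (0.52, adjusted p = 0.0129) were called higher in eWAT. Of the 10 most abundant, those called under the authors' scaling were miR-143-3p, miR-10b-5p and miR-27b-3p, all higher in mWAT. The 10 most abundant miRNAs of a library took 53.8% to 58.7% of its counts in eWAT and 63.4% to 66.8% in mWAT.

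The 2 arms of a hairpin moved together where both were called. Of the pairs of arms that were both tested, 23 had both arms called, 10 higher in eWAT and 13 higher in mWAT, and none had arms called in opposite directions. In 29 pairs 1 arm was called, such as miR-21a-3p, and in 74 neither was. Seeds were grouped as well, 43 of them shared by 2 or more tested miRNAs with a RefSeq sequence. Of these, 13 had members called higher in eWAT only, 9 higher in mWAT only, 21 none, and 0 both. A seed with 1 called member could not hold both. Scaled to total reads, the seed GUAAACA held both directions. There miR-384-5p stayed higher in mWAT, and miR-30a-5p (limma adjusted p = 0.00169) and miR-30c-5p (0.000435) were called higher in eWAT. The arms miR-129-1-3p and miR-129-2-3p, from 2 hairpins that give the same miR-129-5p, did go opposite ways. miR-129-1-3p stood at 15.5, 11.1 and 21.9 in eWAT against 2.95, 0 and 7.56 (2.36 ± 0.67 SE, limma adjusted p = 0.0142). It was not called by edgeR (0.0867) or DESeq2 (0.719), nor without eWAT 3 or mWAT 2. miR-129-2-3p stood at 1.94, 2.56 and 8.30 against 25.6, 39.2 and 35.6 (-2.88 ± 0.43 SE, limma adjusted p = 0.000117).

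Placed among all 6 depots by their means, the called miRNAs fell into several patterns. Of the 54 higher in eWAT, eWAT was the highest of the 6 depots for 25, mWAT the lowest for 26, both for 5 and neither for 8. Of the 73 higher in mWAT, mWAT was the highest for 53, eWAT the lowest for 34, both for 23 and neither for 9. miR-34c-5p, miR-335-5p and miR-92b-3p were high in eWAT against the other 5 depots. miR-322-5p was lowest in mWAT, where the 4 depots outside the pair had means from 1576 to 3128. miR-9-5p and miR-542-3p had both the highest mean in mWAT and the lowest in eWAT. These counts describe an order of means and carry no test.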

How the data were processed

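Small RNA of each depot was sequenced after TRIzol and RNeasy extraction with a TruSeq Small RNA kit, per the labels' protocols. Tools listed without roles in the submitters' processing notes were DESeq, DESeq2 and kallisto 0.45.0, with the builds mm10 and GRCm38. What counted the miRNA reads was not given in the sources used here. Deposited by the authors was a signal, the normalized count of each miRNA in 18 libraries. Their size factors equalled median-of-ratios factors within 0.0002 (log2). Whole reads were recovered, with 100% of values whole within 0.02 reads. The smallest value was 1 read in some libraries and 2 in the others, so a 0 may hide 1 read. Recovered totals set the depths.

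The main test was limma 3.58.1 (R 4.3.3) with the trend option of eBayes, on log2(normalized count + 1). 1 fit held the 6 depots and left 12 degrees of freedom for the residuals. edgeR's filterByExpr kept 436 miRNAs and removed 49. Means and SDs are of normalized counts. Scripts were tested on simulated data. A miRNA counted as leading when called, without overlap between depots and above the median level of 119, the 12 largest differences in each direction being taken. The 10 most abundant miRNAs, members of lists, arms and seed relatives were also named, and miR-135a-5p, miR-490-3p, miR-7b-5p, miR-137-3p, miR-384-3p, miR-384-5p, miR-129-1-3p and miR-129-2-3p after their values were seen. Members and lists were chosen with earlier results of these data known. RefSeq (GRCm38.p6) held sequences for 383 of the 436. The floors cover counting error only, whereas the SEs come from the spread between libraries. Replicates differed by far more than sampling noise (chi-square per degree of freedom 103 to 348), so each library counts as 1. edgeR 4.0.16, DESeq2 1.42.0, other scalings, filters and pseudocounts and left-out libraries were alternatives. The messenger RNA and Argonaute data were not used here.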

Additional observations from a re-analysis of the deposited data

How the results depend on the processing

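Of 17 alternatives, each gave a total of calls within 1.5 times that of the main setting (29.1% of the tested miRNAs), and no called miRNA was called in the opposite direction. Scaling to total reads raised the share called higher in eWAT from 12.4% to 24.5%. Requiring a mean of at least 100 left 232 miRNAs tested and lowered the calls higher in mWAT from 73 to 44, which was 16.7% and then 18.97% of those tested. The calls higher in eWAT went from 54 to 46, which was 12.4% and then 19.83%. The larger number of calls towards mWAT was thus not seen among these more abundant miRNAs. Leaving out each library in turn gave calls for 22.9% to 27.5% of the tested miRNAs, with 8.49% to 12.6% higher in eWAT and 13.99% to 14.9% higher in mWAT. The 24 leading miRNAs kept their direction and call in every alternative. Across the 16 alternatives other than the mean of 100, 80 of those called were called in all, 29 higher in eWAT and 51 higher in mWAT. Without the filter, 6 of the 49 removed miRNAs were called, each with at most 41 reads in any library of the pair.

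The labels number the libraries 1 to 3 in each depot. Deviations from the depot mean correlated across miRNAs at -0.185, -0.308 and 0.061 for equal numbers in eWAT and mWAT, and only number 3 correlated best with its own number, so the numbers were not taken as pairs. With the replicate number as a block, 31.2% of the tested miRNAs were called, 59 higher in eWAT and 77 higher in mWAT. Of the miRNAs named in the report, the block lost the call of miR-449a-5p (adjusted p = 0.054) and added calls higher in eWAT for miR-126a-3p (0.0336), miR-30a-5p (0.0488), miR-30c-5p (0.0188) and miR-615-3p (0.0239). Depth limits the lowest miRNAs: a count of 0 allows up to 3 reads, a mean of 1.67 normalized counts in eWAT and 3.57 in mWAT.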
